A study of Mus musculus with 8 samples.

Results

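The receptors Ror1 and Ror2, the Wnt co-receptors Ryk and Ptk7, and the ligands Wnt5a, Wnt5b and Wnt11 were followed through migrating mouse germ cells that either carried or lacked a mutation in Ror2. These 7 genes were taken by name, each through a probe assigned to that gene alone, out of 19938 genes measured in the same way. Each of the 7 had exactly 1 such probe, so no choice between probes was needed for any of them.

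The study profiled primordial germ cells, the embryonic precursors of eggs and sperm, on 8 microarrays with 1 array per embryo, at embryonic day 9.5. The mutant group held 4 embryos homozygous for Ror2 Y324C, and the WT group held 4 Ror2+/+ embryos. All came from Ror2Y324C/+ parents of mixed strain, and every embryo inherited the Oct4-ΔPE green fluorescent reporter, since the sires carried it on both copies. The allele acts in the whole embryo, so the tissue around the germ cells was mutant as well. Mutants 1 to 4 were collected at 24, 22 to 23, 23 and 21 to 22 somites, with a mean of 22.75 at the midpoints, and WT 1 to 4 at 25, 25, 22 and 21, with a mean of 23.25. Somites are the paired blocks of mesoderm that are added as the embryo grows, so their number stages it.

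Wnt5a, Wnt5b and Wnt11 are secreted glycoproteins best known for signals that do not pass through beta-catenin. Ror1 and Ror2 are single-pass receptors with a frizzled-like, cysteine-rich domain that binds Wnt5a, and their activation feeds into the planar polarity machinery and the actin cytoskeleton. Ryk and Ptk7 are receptors with kinase domains of little or no catalytic activity that join Wnt receptor complexes. In the mouse embryo, Wnt5a and Ror2 act in the elongation of the body axis and limbs and in the migration of germ cells from the hindgut to the gonadal ridges.

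All values are the deposited log2 values. Array medians over all 35557 probes lay between 5.37 and 5.58, and 12 germ cell markers, Pou5f1, Dppa3 and Kit among them, had a mean of 9.97 to 10.10 in mutants and of 9.84 to 10.13 in WT. WT 3 stood apart in having the narrowest spread of values over genes, with an SD of 1.77 against 1.82 to 1.95 elsewhere, and it was the array of lowest germ cell marker mean. Mutant 4 and WT 3 were the arrays of high Xist, at 6.31 and 7.07, against 3.50 to 4.11 elsewhere. Precision is limited by the number of arrays. Each probe binds with its own strength, so values of different genes are not set against each other as amounts of RNA.

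No scanner values were used here, so the only measure of background came from the arrays themselves. The 95th percentile of 1015 odorant receptor genes, whose products detect smells in the nose, lay between 5.09 and 5.55 on the 8 arrays. Ror2, Ryk, Ptk7, Wnt5a, Wnt5b and Wnt11 were above that line in 8 of 8 arrays. Ryk cleared it by at least 3.96, Ror2 by at least 2.00 and Ptk7 by at least 1.52. Among the ligands the smallest margins were 0.34 for Wnt5a, 0.47 for Wnt5b and 0.16 for Wnt11. Ror1 was below the line in all 8 arrays, and 84.5% of the odorant receptor genes had a lower mean, so its signal could not be told apart from background by this measure.

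**Figure D1:**
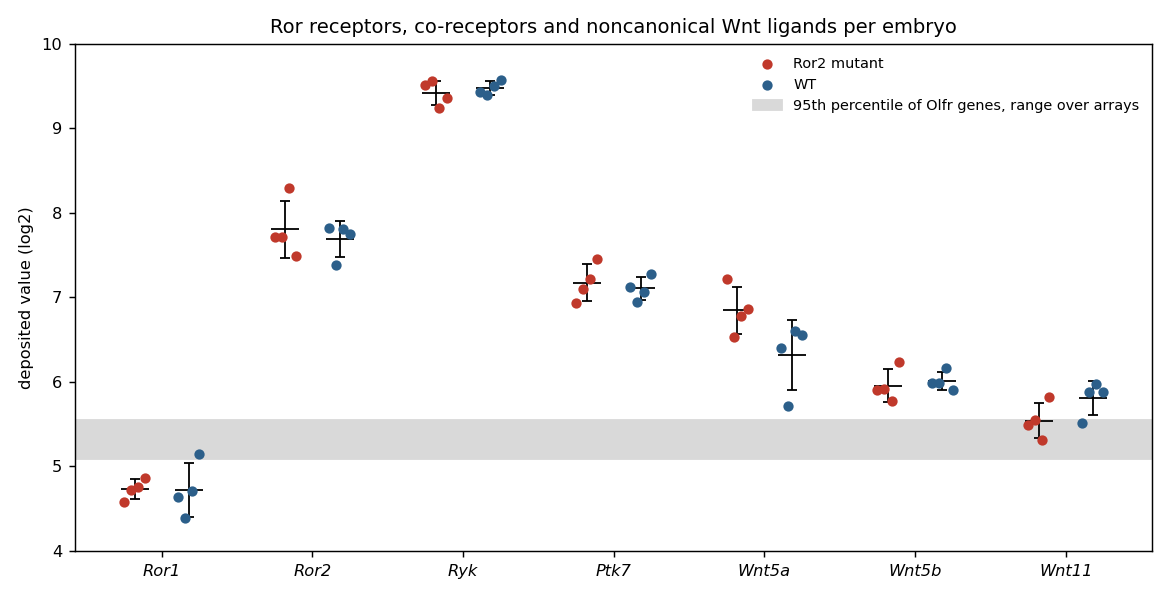
Deposited log2 values of the 7 genes, with Ror2 mutant embryos in red and WT embryos in blue; each point is 1 embryo, the bar is the mean and the whiskers are the SD (n = 4 each). The grey band spans the 95th percentile of odorant receptor genes over the arrays, 5.09 to 5.55: Ror1 lies in or below it, Wnt11 lies in and above it while clearing the line of its own array in each embryo, and the ranges of the groups overlap in every gene.

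The mutant embryos were compared with WT embryos to ask whether germ cells lacking normal Ror2 carry different levels of the receptor, its partners or its ligands. None of the 7 genes passed the test (limma, Benjamini-Hochberg over 19938 genes, threshold 0.05), and in that test 0% of all genes did. Wnt5a had the largest difference, a ratio of mutant to WT of 1.44, and was the only member with an unadjusted p under 0.05. That is 1 of 7, where 4.68% of all genes (934) reached the same limit with 2.72% higher and 1.96% lower in mutants. For none of the 7 did the mutant and WT values separate without overlap, which 2.52% of all genes did. The median difference of the 7 was 0.01 on the log2 scale, beside -0.02 over all genes, with 4 members above 0 where 44.6% of all genes were.

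Ror2, the mutated receptor itself, had values of 7.72, 7.72, 8.29 and 7.50 in mutants 1 to 4, against 7.83, 7.38, 7.81 and 7.76 in WT 1 to 4. Mutant 3 was the highest and WT 2 the lowest of the 8, and the other 6 embryos lay within the range of 7.50 to 7.83. The group means were 7.81 ± 0.34 in mutants and 7.69 ± 0.21 in WT (SD, n = 4 each). The difference of 0.11 ± 0.19 (SE) had a 95% interval from -0.30 to 0.53, and without mutant 3 it was -0.05. The change replaces 1 amino acid, and the probe does not tell the alleles apart, so this level is that of mutant transcript in mutants and is no check of the genotype labels.

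Ror1, the paralogue that can share Wnt5a with Ror2, had values of 4.58, 4.72, 4.76 and 4.86 in mutants and 4.63, 4.39, 4.71 and 5.15 in WT. The mutants lay inside the WT range. The difference was 0.01 ± 0.17 (SE), with an interval from -0.36 to 0.38, and it changed sign between settings. A transcript at or near background cannot show its full change on an array, so this interval bounds the signal and not the transcript.

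The ratio of Ror1 to Ror2 within an array cancels any shift of whole arrays. On the log2 scale it was -3.13, -2.99, -3.53 and -2.63 in mutants 1 to 4, against -3.20, -2.98, -3.10 and -2.61 in WT 1 to 4. The embryo of the highest ratio in each group was replicate 4, and the groups overlapped almost wholly. The difference was -0.10, with p = 0.686 in an exact two-sided permutation test over the 70 ways to divide the arrays (0.686 after Benjamini-Hochberg over the 2 ratios computed). The smallest p that this test can give is 0.0286. With Ror1 below the odorant receptor line on all 8 arrays, this ratio describes the signals and not the relative amounts of the transcripts.

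Ryk, a Wnt receptor with an extracellular WIF domain, showed the smallest spread of the 7. Its values were 9.51, 9.57, 9.25 and 9.36 in mutants and 9.43, 9.39, 9.50 and 9.57 in WT. The lowest and next-lowest values were both in mutants, and a mutant and a WT embryo shared the top at 9.57. The difference was -0.05 ± 0.13 (SE), with an interval from -0.34 to 0.23.

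Ptk7, a planar polarity co-receptor with immunoglobulin domains, had values of 6.93, 7.10, 7.21 and 7.45 in mutants and 7.12, 6.95, 7.07 and 7.28 in WT. Mutants supplied both the lowest and the highest value. The difference was 0.07 ± 0.15 (SE), with an interval from -0.26 to 0.39. Without mutant 4 it was -0.02.

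Wnt5a, the main ligand of Ror2, had values of 7.21, 6.53, 6.78 and 6.86 in mutants 1 to 4, against 6.40, 5.72, 6.61 and 6.55 in WT 1 to 4. Mutants 1, 3 and 4 were above every WT embryo, while mutant 2 lay below WT 3 and WT 4. WT 2 was the lowest by a wide margin. The means were 6.85 ± 0.28 in mutants and 6.32 ± 0.41 in WT (SD, n = 4 each). The difference was 0.53 ± 0.22 (SE), with an interval from 0.05 to 1.01, a limma unadjusted p of 0.0342 and a limma adjusted p of 0.973. Within-group spread was larger for Wnt5a than for the other 6, at a pooled SD of 0.35 where the median of all genes was 0.24. Without WT 2 the difference was 0.33 ± 0.18 (SE), with limma p-values of 0.0969 unadjusted and 0.988 adjusted, and without mutant 1 it was 0.41 ± 0.23 (0.102 and 0.987).

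**Figure D2:**
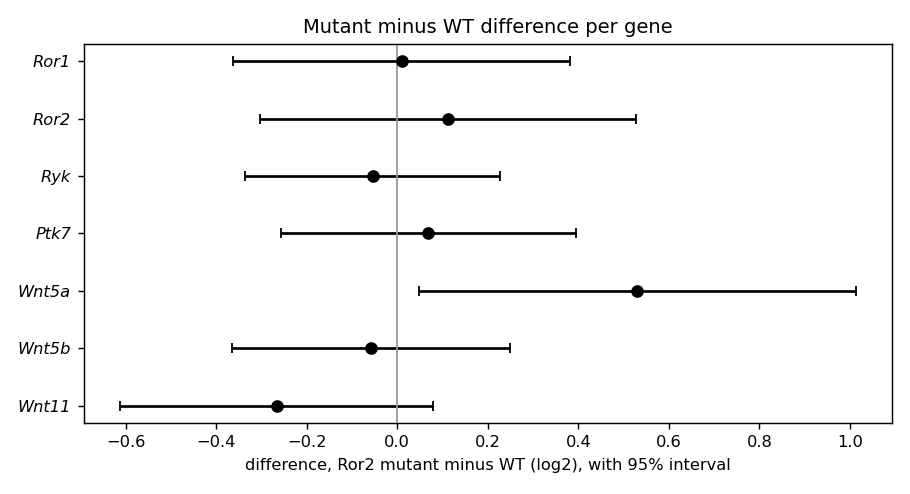
Difference between Ror2 mutant and WT embryos on the log2 scale for each of the 7 genes (points) with its 95% interval from limma (bars), all 8 arrays. The interval of Wnt5a runs from 0.05 to 1.01 before any adjustment for multiple tests, and the other 6 intervals include 0.

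Wnt5a is made by mesenchyme of the posterior body in the mouse embryo, so markers of neighbouring cells were read on the same arrays. The mean of 12 markers of posterior mesenchyme and paraxial mesoderm ran from 5.20 to 5.41 in mutants and from 5.11 to 5.64 in WT, and 5 of the 12 had a mean above the odorant receptor line. The mean of 7 tailbud markers ran from 5.80 to 5.91 in mutants and from 5.77 to 6.03 in WT, with 6 of the 7 above the line. Mesenchyme markers were highest in WT 3 and lowest in WT 1, whereas Wnt5a was highest in mutant 1 and lowest in WT 2. The odorant receptor line, too, was highest in WT 3 (5.55) and lowest in WT 1 (5.09), so the mesenchyme mean may carry background. The part of these cell types in the Wnt5a difference was not tested. In a sort of this kind, fewer cells of a type and less RNA per cell cannot be told apart.

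**Figure D3:**
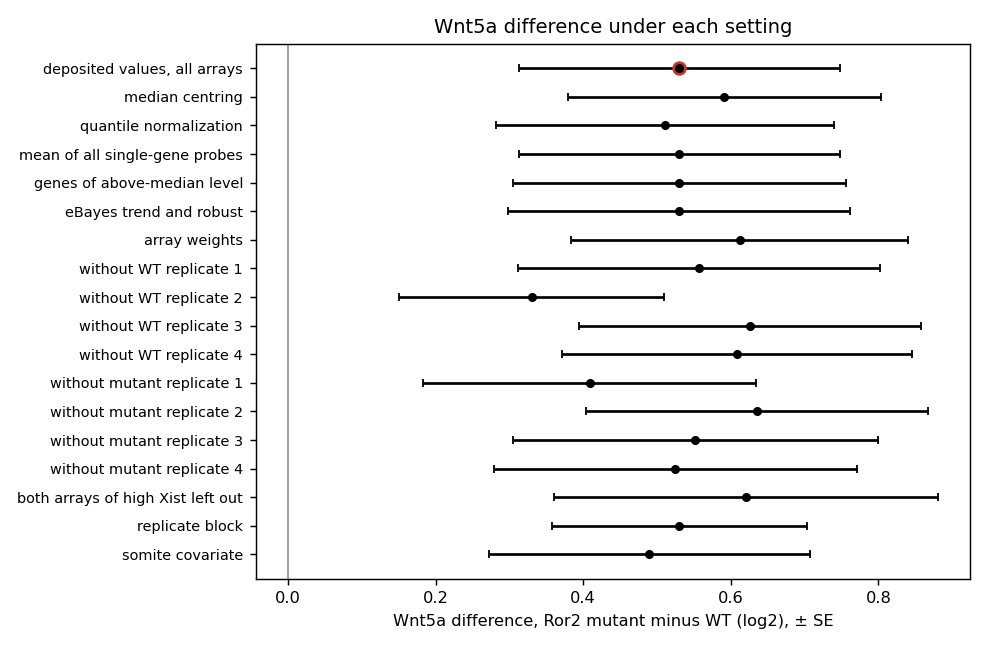
Difference of Wnt5a between Ror2 mutant and WT embryos (log2, points) with its SE (bars) for the deposited values with all arrays (top, red) and each alternative setting below it. Every point lies above 0, from 0.33 without WT 2 to 0.64 without mutant 2. The all-probe mean, above-median genes, variance model and replicate block could change only the SE, so their points stay at 0.53.

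Wnt5b, the closest relative of Wnt5a, had values of 5.90, 5.91, 5.77 and 6.23 in mutants and 5.99, 5.99, 6.16 and 5.91 in WT. Mutants 1, 2 and 3 were close to or below the lowest WT value, and mutant 4 was the highest of all. The difference was -0.06 ± 0.14 (SE), with an interval from -0.36 to 0.25.

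The within-array ratio of Wnt5a to Wnt5b was 1.31, 0.62, 1.01 and 0.63 in mutants 1 to 4, against 0.41, -0.27, 0.44 and 0.65 in WT 1 to 4, on the log2 scale. Mutants 1 and 3 exceeded all WT embryos, while mutants 2 and 4 lay just under WT 4. The mean ratio was 0.89 ± 0.33 in mutants and 0.31 ± 0.40 in WT (SD, n = 4 each), a difference of 0.59. It had p = 0.0857 in the exact two-sided permutation test, and 0.171 after adjustment over the 2 ratios. Without WT 2 the difference was 0.40.

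Wnt11, a ligand that drives convergent extension in fish and frog embryos, had values of 5.50, 5.55, 5.31 and 5.82 in mutants and 5.51, 5.88, 5.97 and 5.88 in WT. WT 2, 3 and 4 were above all mutants, and WT 1 lay level with mutants 1 and 2. The difference was -0.27 ± 0.16 (SE), with an interval from -0.61 to 0.08, a limma unadjusted p of 0.117 and an adjusted p of 0.973. Its difference kept its sign under every setting tried, from -0.37 to -0.19, as did that of Wnt5a. Settings that alter only the SE, the replicate block among them, could not turn a sign. The other 5 genes each changed sign in at least 1 setting. Wnt11 cleared the odorant receptor line of its own array by only 0.16 to 0.50. That line was at 5.29, 5.14, 5.15 and 5.37 in mutants 1 to 4, and at 5.09, 5.38, 5.55 and 5.44 in WT 1 to 4. The part of background in the Wnt11 difference was not tested.

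The relation of each gene to the stage of the embryo was fitted as a slope per somite, with genotype in the limma model. None of the 7 slopes passed, and 0% of all genes passed. All 7 slopes were below 0, where 59.5% of all genes had a negative slope. The median of the 7 was -0.08 per somite beside -0.02 over all genes. The odorant receptor line also varied with the embryo. In WT it was 5.09 and 5.38 at 25 somites, 5.55 at 22 and 5.44 at 21. In mutants it was 5.29 at 24 somites, 5.15 at 23, 5.14 at 22 to 23 and 5.37 at 21 to 22. The part of this background in the slopes was not tested. Ror1 was the member with an unadjusted p under 0.05, which is 1 of 7, where 9.74% of all genes reached it, 4.72% with a negative and 5.02% with a positive slope.

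The slope of Ror1 was -0.13 ± 0.05 per somite (SE), with an interval from -0.23 to -0.02, a limma unadjusted p of 0.0200 and an adjusted p of 0.474. Its highest values, 4.86 in mutant 4 and 5.15 in WT 4, belonged to the youngest embryo of each genotype, and its lowest, 4.39, to WT 2 at 25 somites. The slope was -0.10 ± 0.11 within mutants and -0.13 ± 0.05 within WT (SE). It was negative under every setting, from -0.15 to -0.08 per somite. Its limma unadjusted p was above 0.05 after median centring (0.0687), quantile normalization (0.0755) and with the replicate block (0.391), and without WT 2 (0.0834), WT 4 (0.202) or both embryos of 25 somites (0.175), with adjusted p-values from 0.418 to 1.00 over all settings. All of these values lay below the odorant receptor line, which itself was 5.37 in mutant 4 and 5.44 in WT 4.

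Ptk7 had a slope of -0.08 ± 0.05 per somite (SE; interval -0.18 to 0.03), and its highest values were again in mutant 4 (7.45) and WT 4 (7.28). Wnt11 had a slope of -0.08 ± 0.05 (interval -0.19 to 0.04). The slopes of Ryk, Wnt5b and Ror2 were -0.02 ± 0.04, -0.03 ± 0.05 and -0.01 ± 0.07 per somite. Markers of hindgut endoderm, the tissue that germ cells leave at this stage, were also highest in these embryos: averaged over 8 genes, they stood at 6.59 in mutant 4 and 6.67 in WT 4, and between 6.02 and 6.39 on the remaining arrays. The rest of the order differed, with WT 1 the lowest for the hindgut markers. Markers of urogenital and coelomic mesoderm were highest in mutant 4 and WT 4 too, at 5.60 and 5.47, with WT 2 next at 5.45. Slopes were negative in 7 of 8 hindgut markers, and likewise in 10 of 12 markers of posterior mesenchyme, 7 of 8 of urogenital mesoderm, 7 of 8 of neural tube and crest, 6 of 7 of primitive erythroid cells and 5 of 6 of macrophages. They were negative in 5 of 7 endothelial, 4 of 7 tailbud and 5 of 12 germ cell markers. Over all genes 59.5% of slopes were negative. The part of any of these cell types in the Ror1 and Ptk7 slopes was not tested.

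**Figure D4:**
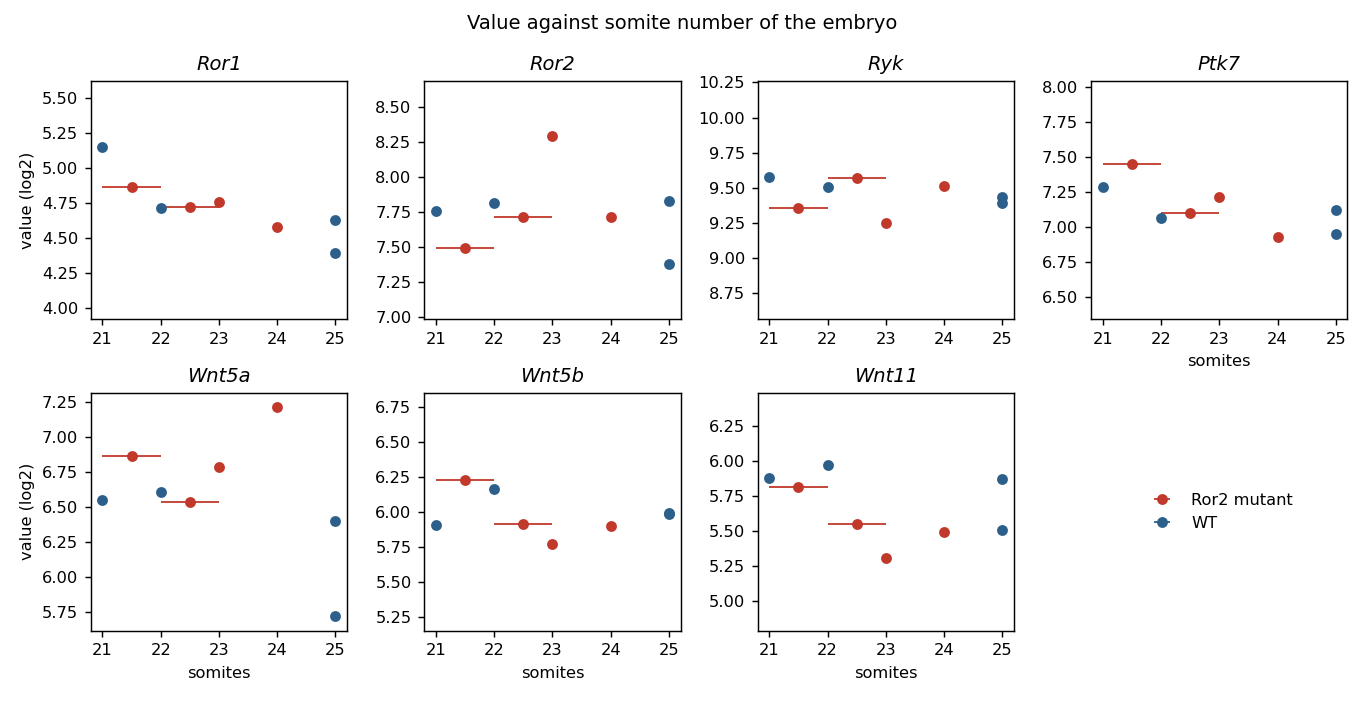
Log2 value of each gene against the somite number of the embryo, with Ror2 mutants in red and WT in blue; horizontal bars show a somite range given in the labels, and every panel spans 1.7 log2 units. Ror1 and Ptk7 are highest in the embryos of 21 and 21 to 22 somites. The lowest Ror1, Ror2 and Wnt5a values are all those of WT 2, at 25 somites. WT 1, also at 25 somites, has the highest Ror2 value of the WT embryos (7.83).

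The slope of Wnt5a was 0.15 ± 0.15 per somite within mutants and -0.14 ± 0.08 within WT (SE), and -0.08 ± 0.08 in the shared fit. The difference between these slopes was 0.29 ± 0.17 (SE), with an interval from -0.10 to 0.69, a limma unadjusted p of 0.121 and an adjusted p of 0.999. Leaving out 1 embryo moved it between 0.05 without mutant 1, the oldest mutant, and 0.59 without mutant 4. The limma unadjusted p was then 0.858 and 0.0447, and it was 0.0425 without WT 1, where the slope difference was 0.38. Without both arrays of high Xist the slope difference was 0.57 (limma unadjusted p = 0.0610), and with the replicate block 0.09. The adjusted p ran from 0.893 to 1.00 over all settings, so no difference in slope passed. For the other 6 genes the mutant slope minus the WT slope lay between -0.15 for Ptk7 and 0.18 for Ror2. None of the 7 slope differences had an unadjusted p under 0.05, which 4.52% of all genes had, and 0% of all genes passed after adjustment. With somite number as a covariate, the Wnt5a difference between mutants and WT was 0.49 ± 0.22 (SE).

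The rest of the pathway was read through 8 lists holding 96 genes, of which 95 were measured. Of these, 0 passed in the comparison of mutants with WT, 2 were higher and 1 was lower at an unadjusted p under 0.05 (3.16%, beside 4.68% of all genes), and the median difference was -0.03. In the list of core planar polarity and Ror scaffold genes, 13 of 17 lay above 0, where 44.6% of all genes did. Of these 17, 15 had a mean above the odorant receptor line, and no comparison with genes of like level was made. The median of this list was 0.10. Their members of smallest p were Smurf2, a ubiquitin ligase that targets the polarity protein Prickle, and Celsr1, a polarity cadherin.

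Celsr1 was at 6.53 ± 0.18 in mutants and 6.20 ± 0.12 in WT (SD, n = 4 each), a difference of 0.33 ± 0.14 (SE). Smurf2 was at 7.23 ± 0.43 in mutants and 6.44 ± 0.30 in WT, a difference of 0.79 ± 0.23 (SE). In both genes the lowest mutant value was above the highest WT value, which is 2 of the 95 pathway genes (2.11%), beside 2.52% of all genes. Smurf2 had 2 probes that disagreed: the brighter one gave this difference, the dimmer one gave -0.14, and their mean gave 0.32. Both genes had a limma adjusted p of 0.973.

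The 10 Frizzled receptors, the main Wnt receptors, had 6 members above 0 and none with an unadjusted p under 0.05. Fzd2 differed by -0.29 ± 0.20 and Fzd7 by 0.32 ± 0.22 (SE). The 14 co-receptors of the heparan sulfate and transmembrane classes had 8 above 0, with Sdc1 at 0.27 ± 0.14 and Gpc4 at -0.40 ± 0.23. Gpc4, at 3.93 in mutants and 4.32 in WT, was below the odorant receptor line on all 8 arrays, and without WT 4 its difference was -0.16. None of the 5 measured kinases related to Ror in sequence was above 0, and 1 of the 5 had a mean above the odorant receptor line. Ntrk2, a neurotrophin receptor, differed by -0.31 ± 0.14 and Ntrk3 by -0.18 ± 0.13, and both were below the line on all 8 arrays.

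Among the 16 other Wnt ligands 6 were above 0, with Wnt8b at -0.28 ± 0.13 and Wnt3a at -0.23 ± 0.14 (SE). Of 5 genes of Wnt secretion 1 was above 0, Tmed2 at 0.27 ± 0.18, and Tmed10 was at -0.22 ± 0.15. Tmed2 was at 0.12 without WT 3, and the mean of the 2 Tmed10 probes gave -0.061. Of 11 secreted antagonists 3 were above 0, with Cer1 at -0.20 ± 0.17 and Dkk2 at -0.23 ± 0.20. Downstream, the 17 genes of the calcium branch had 7 above 0, with Plcb1 at -0.21 ± 0.15 and Prkcb at -0.25 ± 0.20. Wnt8b, Cer1 and Plcb1 were below the odorant receptor line on all 8 arrays, and Wnt3a, Dkk2 and Prkcb on some of them. Without WT 3 the differences were -0.13 for Wnt3a, -0.062 for Cer1, -0.13 for Dkk2 and -0.058 for Prkcb. Axin2, a feedback gene of the beta-catenin branch, differed by 0.53 ± 0.18 (SE; limma adjusted p = 0.973), the same size as Wnt5a. Without both arrays of high Xist the difference was 0.31 for Axin2 and 0.62 for Wnt5a.

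**Figure D5:**
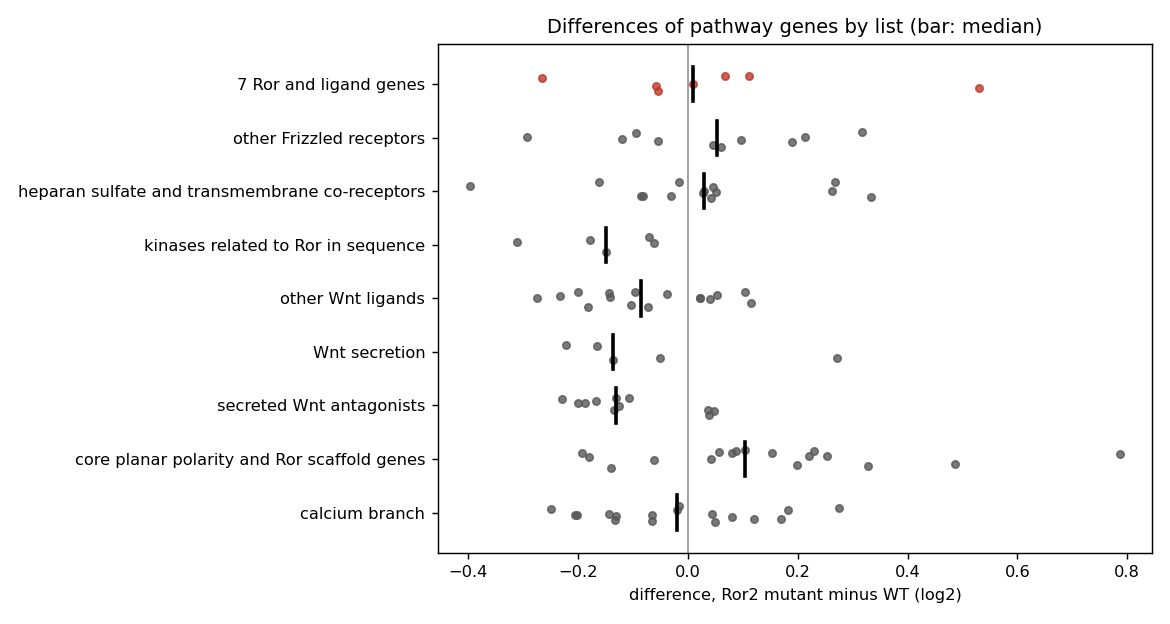
Difference between Ror2 mutant and WT embryos (log2) for each gene, 1 point per gene, for the 7 Ror and ligand genes (red, top) and for the 8 pathway lists (grey), with the median of each as a bar. The medians run from -0.15 for kinases related to Ror to 0.10 for planar polarity genes, and Smurf2 at 0.79 and Wnt5a at 0.53 lie farthest to the right.

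With stage, 0 of the 95 pathway genes passed. At an unadjusted p under 0.05, 3 had a positive and 6 a negative slope (9.47%, beside 9.74% of all genes). Of the 95 slopes 69 were negative, where 59.5% of all genes had a negative slope. Fzd3, a Frizzled of the planar polarity system, had the slope of smallest p, 0.49 ± 0.08 per somite (SE; limma adjusted p = 0.255). It was at 7.09, 5.77, 6.94 and 5.34 in mutants 1 to 4, and at 7.18, 6.81, 5.42 and 5.49 in WT 1 to 4. With midpoints for somite ranges, the 4 embryos of 23 somites or more lay between 6.81 and 7.18, and the 4 younger ones between 5.34 and 5.77. Mutant 2, at 5.77, is labelled 22 to 23 somites and counts as younger only by its midpoint. This division of the embryos was not tested. Fzd3 was below the odorant receptor line in mutant 4 and WT 3. Wls, which carries Wnt proteins to the cell surface, had a slope of -0.26 ± 0.07 per somite, at values below the odorant receptor line on all 8 arrays. Wnt9b (-0.11 ± 0.04), Vangl2 (-0.15 ± 0.06), Sfrp1 (0.16 ± 0.07), Gpc5 (-0.11 ± 0.05), Ddr2 (-0.07 ± 0.06) and Camk2b (-0.12 ± 0.04) had the smallest p of their lists. Gpc5 was also below that line on all 8 arrays, and Ddr2 was above it on 1.

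For each of the 7 genes, the 3 genes of most similar course over the 8 arrays were picked by Pearson's r, among genes of above-median level, as a description without a test. Each top value is the best of 6879 to 9576 candidates, and arrays share their overall scaling. Wnt5a ran most like Ccs, a copper chaperone (r = 0.947), Git1 (0.930) and Trappc2l (0.930). Ror2 ran most like Pigo (0.976), Mlh3 (0.969) and Timm44 (0.944), and Ror1 most like Camk2n1 (0.973), Samd5 (0.966) and Tmem28 (0.936). For Ptk7 they were Trappc6a (0.974), Erlec1 (0.958) and Ermp1 (0.953), and for Ryk Gatad1 (0.953), Prdm16 (0.917) and Cep131 (0.906). Wnt5b ran with Ints10 (0.952), Ttll10 (0.922) and Cby3 (0.913), and Wnt11 with Espnl (0.963), Cpne6 (0.946) and Src (0.943).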

How the data were processed

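The deposited table held 1 value per probe and array, taken from its range to be on the log2 scale. The labels' protocols name trypsin digestion of single posterior parts, sorting of fluorescent cells and amplification of total RNA with NuGEN kits. The sources used here do not state how the authors corrected background, normalized or summarised probes. Their log2 values were used as deposited. Of 35557 probes, 21789 had 1 gene symbol in the platform annotation and 1621 had several, which named no gene. Genes with several probes (999) took the probe whose mean over the arrays was highest.

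Groups and somite numbers came from the labels, with midpoints for ranges. limma 3.58.1 in R 4.3.3 (lmFit, eBayes) was fitted over 19938 genes with Benjamini-Hochberg adjustment. The SE and 95% intervals are limma's, and SD is over 4 embryos. Alternatives covered scaling, probes, filters, variance model, weights, covariates and embryos left out. The code was tested on simulated data. The 7 genes, the lists and the ratios were chosen with earlier results of these data known. A planned list is not reported here. From each other pathway list, the 2 genes of smallest p for genotype and the 1 of smallest p for stage were named, and Axin2 by name. Genes most like a member had an SD of no less than 0.5 times the member's, predicted genes left out.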

Additional observations from a re-analysis of the deposited data

Results flagged for a closer look

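Ror2 in WT 2 lay apart from the other WT embryos, at 7.38 where the nearest was 7.76. This gap was 0.841 of the range of the 4 WT values, above Dixon's 95% limit for 4 samples. It was the only one among 18 groups of values examined, where chance gives about 1 in 20. WT 2 was also the array of lowest Wnt5a (5.72) and Ror1 (4.39), neither of which passed that limit.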

How the results depend on the processing

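Every member and every ratio stayed on the same side of its threshold in every setting run, but some directions turned. Adjusted p-values of Wnt5a for mutants against WT ran from 0.580 to 1.00. After median centring the differences of Ryk and Wnt5b were 0.0066 and 0.0032, and the slopes of Ror2 and Ryk 0.013 and 0.00087 per somite. With array weights the Ror1 difference was -0.0080, with the somite covariate -0.054, and without both arrays of high Xist -0.037, as was that of Ptk7 (-0.037). Quantile normalization gave 0.020 for the ratio of Ror1 to Ror2. Slopes without both arrays of high Xist were 0.020 for Wnt5b, and slope differences -0.044 for Ror2 and 0.042 for Wnt11. With the lower end of somite ranges the Ror2 slope was 0.00074. Leaving out both embryos of 25 somites, a setting chosen after seeing the data, gave slopes of 0.12 for Ror2, 0.021 for Ryk, 0.14 for Wnt5a, 0.058 for Gpc5 and 0.049 for Ddr2. The causes of these turns were not tested.

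Leaving out 1 embryo at a time gave mutant minus WT differences from -0.10 to 0.15 for Ror1, from -0.051 to 0.21 for Ror2, from -0.10 to 0.0038 for Ryk, from -0.025 to 0.15 for Ptk7 and from -0.15 to 0.0033 for Wnt5b. Slopes ran from -0.050 to 0.046 for Ror2 and from -0.14 to 0.0087 for Wnt5a. Slope differences ran from -0.038 to 0.066 for Ror1, from -0.034 to 0.53 for Ror2, from -0.31 to 0.014 for Wnt5b, from -0.27 to 0.056 for Wnt11, and from 0.048 to 0.59 for Wnt5a. The ratio of Ror1 to Ror2 ran from -0.25 to 0.051. Of the 17 pathway genes named for mutants against WT, 9 moved by over 1.5 times on leaving out 1 embryo, Fzd2 to -0.46 without mutant 3, Fzd7 to 0.13 without mutant 1 and Plcb1 to -0.31 without WT 1 besides those given above. Of the 8 named for stage 2 did, Ddr2 to -0.11 without mutant 1 and Sfrp1 to 0.078 without WT 1.

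Counts over all genes moved more. Genes of above-median level gave 538 at an unadjusted p under 0.05 for mutants against WT, 1046 for the slope and 546 for the slope difference, since fewer genes were tested. Leaving out 1 embryo gave 729 to 1715 for mutants against WT, the highest without WT 1. Array weights gave 555 for the slope difference, and leaving out both embryos of 25 somites 936 for the slope. Past the adjusted threshold, the slope counts were 0 to 2 on leaving out 1 embryo, 5 without both arrays of high Xist and 1 with the upper end of somite ranges.

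Replicate numbers are shared between the groups, and no pairing by number was detected. Of the same-numbered pairs, 0 of 4 had deviations correlated above 0.1 (from -0.194 to 0.0965). In addition, 0 of 4 mutants were nearest to the WT embryo of their own number. These values cannot show that the numbers mark no pairing. With the replicate block the Wnt5a difference was 0.53 ± 0.17 (SE; limma adjusted p = 0.991). The slopes of Ptk7 and Vangl2 were then 0.024 and 0.072, 675 slopes had an unadjusted p under 0.05, and 70 slope differences passed the adjusted threshold, a fit with 1 residual degree of freedom.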
